A study of Mus musculus with 6 samples.

Results

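The Cthrc1+ fibroblasts (FBs) of bleomycin-injured mouse lung were chosen from single-cell RNA-Seq libraries by their own transcripts. A barcode was counted as a Cthrc1+ FB when it held at least 2000 unique molecular identifiers (UMIs, each standing for 1 captured transcript molecule), no UMI of Ptprc, Pecam1 or Epcam, at least 1 UMI of Col1a1, fewer than 2 UMIs of Mki67 and Top2a together, and at least 2 UMIs of Cthrc1 that came to 150 CPM or more (UMIs per 1000000 UMIs of the barcode). This rule held for 211 of the 6015 FB barcodes that passed its other conditions in the 2 bleomycin libraries, which had 11752 barcodes of the 33286 in all 6 libraries. There were 62 Cthrc1+ FBs after a single dose and 149 after repetitive doses. They were set beside the 537 and 3794 barcodes of the same library that met the same conditions with Cthrc1 at 0 and at least 1 UMI of Pdgfra, called comparison FBs here.

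All cells came from Pdgfra-GFP reporter mice, in which the Pdgfra locus drives GFP, and GFP+ lung cells were sorted 14 days after the last exposure. The mice received either 1 dose of bleomycin (the protocol text says 2 U/kg, the treatment entry says 4 U/kg) or 3 doses a week apart, 1 U/kg for the first and the second and 0.5 U/kg for the third, aspirated through the pharynx. Each experiment had a PBS library. Each library pooled 3 mice and there was 1 library per condition, so mice could not be told apart and no difference between conditions or groups of barcodes was tested. Intervals are exact 95% intervals (Poisson for levels, Clopper-Pearson for shares) and cover counting error only. Because the cells were chosen by Cthrc1 in the same libraries, all differences from the comparison FBs describe the chosen barcodes.

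Cthrc1 encodes a secreted glycoprotein that is little expressed in resting lung and is known to mark collagen-producing FBs of fibrotic lung. Such FBs are regarded as a form of myofibroblast (MyoFB), a contractile cell that arises during repair, anchors itself through smooth muscle actin (Acta2) and lays down collagen under the control of transforming growth factor beta (TGF-beta). Spp1 encodes osteopontin, an adhesive phosphoprotein of injured tissue that binds integrins, and Inhba encodes the activin A subunit, a secreted ligand related to TGF-beta.

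Spp1 and Inhba are used here as markers beside Cthrc1 and recur in the results, so their promoter sequences are shown. These are the 250 bases before the RefSeq start on the plus strand of build GRCm38.p6, the genome that the deposited counts refer to as mm10. Spp1 occupied chr5:104435118-104441050, its promoter window was chr5:104434861-104435110, and the Inhba window was chr13:16011601-16011850. Capitals mark the letters TGTGGT, the core that Runt-related (RUNX) factors bind, on either strand.
Spp1: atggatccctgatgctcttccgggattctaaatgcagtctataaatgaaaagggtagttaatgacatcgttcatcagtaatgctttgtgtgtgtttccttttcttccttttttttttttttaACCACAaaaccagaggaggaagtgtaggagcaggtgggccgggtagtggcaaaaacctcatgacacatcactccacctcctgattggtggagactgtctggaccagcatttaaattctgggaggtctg
Inhba: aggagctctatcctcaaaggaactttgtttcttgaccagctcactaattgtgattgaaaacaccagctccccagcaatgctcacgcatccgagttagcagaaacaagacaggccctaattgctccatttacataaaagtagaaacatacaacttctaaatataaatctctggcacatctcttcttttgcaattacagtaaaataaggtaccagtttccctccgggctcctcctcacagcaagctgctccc
The Spp1 window held 1 match, on the minus strand and 128 bases before the start, and the Inhba window held none. A second RefSeq start of Spp1 had no match. Of 32851 promoter windows in the table, 14.0% held TGTGGT, 12.6% held GGAATG (the TEAD core) and 6.75% held TGANTCA (the AP-1 site). The Inhba window held none of these 3 motifs.

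Cthrc1+ FBs were a small share of the FB barcodes after bleomycin and nearly absent after PBS. After a single dose they were 62 of 777 FB barcodes, or 7.98% [6.17–10.1]. After repetitive doses they were 149 of 5238, or 2.84% [2.41–3.33]. The single-dose PBS library had 0 of 812, which allows a share of up to 0.369% at a limit of 3 counts (Clopper-Pearson upper limit 0.453%), and the repetitive PBS library had 4 of 4950, or 0.0808% [0.0220–0.207]. With 1 library per condition these shares describe the libraries, and no difference between them was tested.

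The 4 PBS barcodes past the rule had 3 to 6 UMIs of Cthrc1 and 0 UMIs of Spp1, Inhba, Grem1, Acta2 and Tagln. Each had 2 to 11 UMIs of Pdgfra and 87 to 262 UMIs of Dcn, which encodes the small proteoglycan decorin. A pair of them had 24 to 41 UMIs of Col14a1, 28 to 36 of Pi16 and 31 of Ly6a, genes of adventitial FBs that were also high in some Cthrc1+ FBs after bleomycin, and 1 of this pair had 1 UMI each of Postn and Col8a1. Another had 9 UMIs of Col14a1, 0 of Pi16 and 8 of Ly6a, and the remaining barcode had 1, 0 and 2. The order of the bleomycin shares cannot be told apart from differences in dosing and depth. The repetitive bleomycin library had 43.7% of its barcodes under 2000 UMIs against 7.59% in the single-dose library. At a minimum of 5000 UMIs the shares of Cthrc1+ FBs were 7.70% in the single-dose and 3.83% in the repetitive bleomycin library. After thinning to 2000 UMIs, 6.4% and 3.2% of FB barcodes had at least 1 UMI of Cthrc1. The part of the GFP sort in these shares was not tested. With at least 4 UMIs and 300 CPM required, the shares were 4.38% and 1.34%.

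**Figure D1:**
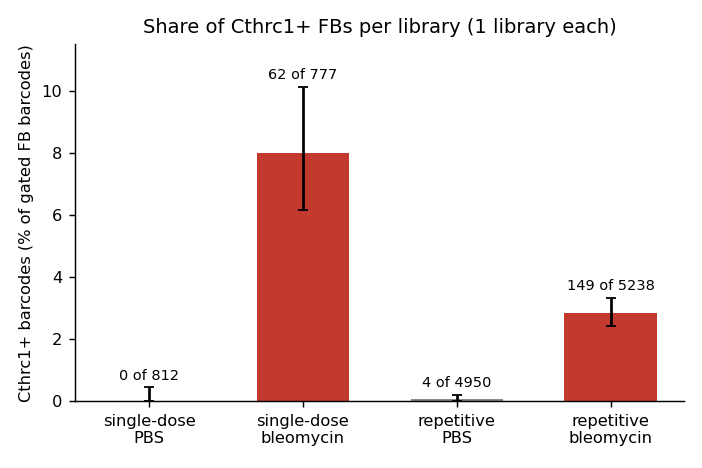
Share of FB barcodes (vertical axis, %) that were Cthrc1+ in each of the 4 lung libraries, with exact 95% intervals of counting error. The bleomycin libraries stand at 7.98% and 2.84% and the PBS libraries at 0% and 0.0808%.

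Library totals were 7201081 UMIs in single-dose PBS, 11869967 in single-dose bleomycin, 64697147 in repetitive PBS and 68354458 in repetitive bleomycin. Cthrc1+ FBs were deeper than comparison FBs, with medians of 15222 against 11455 UMIs in the single-dose library and 14748 against 10124 in the repetitive library. A rule of at least 2 UMIs favours deep barcodes, so levels are given as the summed UMIs of a group of barcodes per 1000000 (CPM) and shares of cells with a UMI after thinning each barcode to 2000 UMIs, with unthinned shares named as such. Mitochondrial shares had medians of 3.11% against 3.13% and 2.95% against 3.28%. The single-dose libraries shared 2 barcode sequences, 1 of them a Cthrc1+ FB, and the repetitive libraries shared 28, none of them a Cthrc1+ FB.

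UMIs of Cthrc1 were also found in barcodes of other cell types. Without thinning, they were in 18.02% of all FB barcodes after a single dose (median 11447 UMIs) and in 6 of 33 leukocyte barcodes (18.2%, median 9407 UMIs), of which 1 passed the 2 Cthrc1 limits. In the same library 0 of 14 endothelial barcodes (median 15080 UMIs) had one, which at a limit of 3 counts allows a share of up to 21.4%, and 0 of 3 epithelial barcodes did. In the repetitive bleomycin library they were found in 6.68% of FB barcodes (median 8366 UMIs), in 9 of 320 leukocyte barcodes (2.81%, median 7046.5 UMIs), of which 3 passed the limits, in 8 of 69 endothelial barcodes, of which 1 passed, and in 2 of 15 epithelial barcodes (13.3%, median 22355 UMIs), of which 1 passed. Free RNA, doublets and expression in other cell types were not told apart. Detection of Cthrc1 alone did not separate FBs from leukocytes after a single dose, and the level required by the rule was reached in 62 of 777 FB and 1 of 33 leukocyte barcodes. Across the chosen cells, Cthrc1 ranged from 151 to 4959 CPM with a median of 410.3 after a single dose, and from 150.1 to 3343 with a median of 461 after repetitive doses.

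Cells close to the limit differed between libraries. In the single-dose library the 10 cells at 150 to 200 CPM of Cthrc1 had 50.3 CPM of Postn and 566 CPM of Inmt, and the 8 barcodes just below, at 100 to 150 with at least 2 UMIs, had 39.4 and 1313. In the repetitive library the 19 cells just inside had 641 CPM of Postn and 12.2 CPM of Inmt, and the 10 just outside had 3.95 and 229.

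The label of myofibroblast was checked against 6 markers, Spp1, Tagln, Tgfb1, Acta2, Postn and Tnc. All 6 were detected, and their summed level was 17006 CPM in Cthrc1+ FBs against 3355 in comparison FBs after a single dose, and 16479 against 1232 after repetitive doses. Spp1 made up most of both sums in Cthrc1+ FBs. Acta2, the defining contractile actin, had no UMI in many of the cells: without thinning it was detected in 75.8% of Cthrc1+ FBs against 52.7% of comparison FBs after a single dose and in 54.4% against 26.6% after repetitive doses, and after thinning the shares were 43.5% against 22.5% and 26.2% against 9.46%. The cells are therefore called by the gene that chose them.

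Markers of other cell types were detected in the chosen cells, mostly at low summed levels. All 6 markers of FBs in general were detected, at 18311 against 16062 CPM after a single dose and 17208 against 13555 after repetitive doses. Of 11 macrophage and monocyte genes 10 and 9 were detected, and they summed to 89.6 against 132 and 30.5 against 119, the 5 neutrophil genes to 1.93 against 3.94 and 0.391 against 1.65, and the 7 T cell genes to 13.5 against 5.84 and 2.34 against 3.86. The 7 B and plasma cell genes, which hold immunoglobulin transcripts, had 6 detected in each library and summed to 16.4 against 14.7 and to 29.3 against 1337. The 7 endothelial genes, 5 and 3 of them detected, gave 44.3 against 92.6 and 35.2 against 51.5 with Cdh5 and Tie1 at 0 in both libraries, and the 8 epithelial genes, 5 of them detected in each library, gave 67.4 against 97.5 and 46.1 against 111 with Cdh1 at 0 in both.

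Among mesenchymal relatives, mesothelial genes were at 22.2 against 116 and 26.6 against 85.4 CPM, with Msln, Upk3b and Lrrn4 at 0 in both libraries. Smooth muscle genes were at 509 against 153 and 162 against 80.8, and Myh11, the smooth muscle myosin, had 8 UMIs from 1 barcode after a single dose and 1 UMI after repetitive doses. Pericyte genes were at 318 against 138 and 422 against 157, with Higd1b at 0 in both libraries, Cox4i2 at 0 after a single dose and Rgs5 at 0 after repetitive doses. Pdgfrb, the receptor shared by pericytes and activated FBs, had 226 against 113 CPM (log2 ratio 0.99) and 261 against 115 (1.17). The 4 erythrocyte genes were at 0 against 0.316 and 0.391 against 0.559.

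The profile of Cthrc1+ FBs was described by a log2 ratio of summed levels in Cthrc1+ over comparison FBs, after adding 1 CPM, for genes with at least 20 UMIs over both groups. A gene is called higher or lower at a ratio of 1 or more in either direction. After a single dose 455 of 10892 genes were higher (4.18%) and 974 were lower (8.94%). After repetitive doses 594 of 15121 were higher (3.93%) and 1096 were lower (7.25%). The median ratio over all genes was -0.04 and -0.05.

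Of 10178 genes kept in both libraries, 230 were higher in both (2.26%), 377 were lower in both (3.7%) and 4 went opposite ways (0.0393%). The 230 were 53.1% of the 433 genes (4.25%) higher in the single-dose library and 68.5% of the 336 (3.3%) in the repetitive library, and the 377 were 42.7% of 882 (8.67%) and 63.4% of 595 (5.85%). Across genes, which are not independent replicates, the ratios of the 2 libraries had a Spearman rho of 0.51 and a Pearson r of 0.68. The libraries shared no mice in the labels and no control barcodes, but did share the choice by Cthrc1 and the greater depth of the chosen cells.

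**Figure D2:**
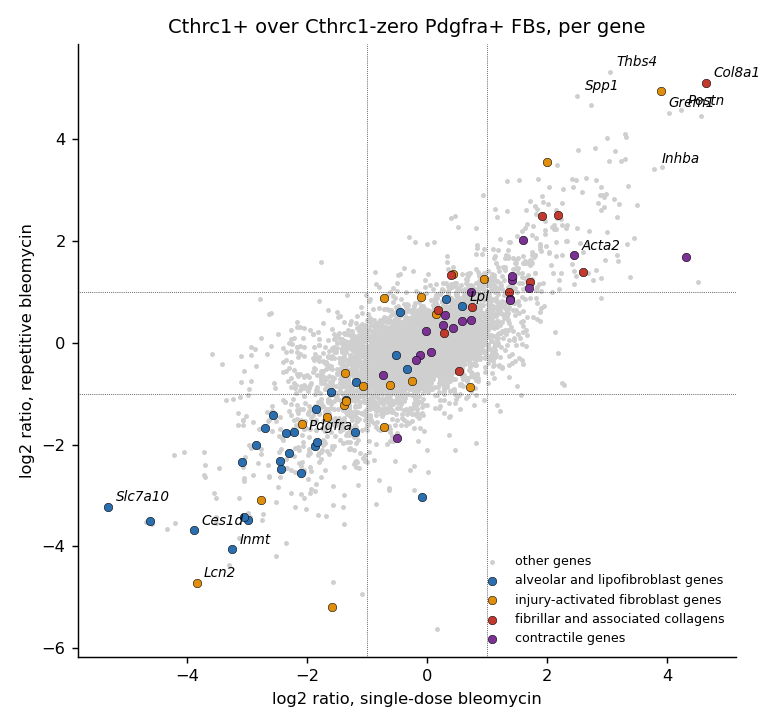
Log2 ratio of Cthrc1+ over comparison FBs for each gene kept in both libraries, single-dose library on the horizontal axis and repetitive library on the vertical axis, with Cthrc1 left out. Genes higher in both libraries such as Postn (4.22 and 4.57) sit at the upper right, and genes lower in both such as Inmt (-3.24 and -4.06) at the lower left.

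Genes of fibrillar collagens, which build the tensile fibres of scar, were listed together with those of collagens that associate with fibrils or form networks and anchors. Of 12 such genes, 6 of the 11 measured were higher after a single dose and 7 of 12 after repetitive doses, none was lower, and the median ratios were 1.36 and 1.26. Col5a1, Col5a3, Col7a1, Col8a1 and Col12a1 were higher in both libraries, of which Col5a1 and Col5a3 were not past the limit in both without the deepest 10% of barcodes. Col7a1 was not past it in both with Cthrc1+ FBs at 2000 CPM of Spp1 or more left out. Col1a1, the main chain of type I collagen and a gene of the rule, had 7882 CPM in Cthrc1+ FBs, 2452 in comparison FBs and 862 in the PBS library after a single dose, and 6182, 2456 and 694 in the repetitive libraries, with ratios of 1.68 and 1.33. Its partner Col1a2 had ratios of 1.36 and 0.99.

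The collagens differed in how far they set Cthrc1+ FBs apart. Col3a1, the chain of type III collagen, was near the level of comparison FBs, at 6655 against 5488 CPM (ratio 0.28) and 5685 against 4997 (0.19), although both groups were above the 1414 and 1231 of the PBS libraries. Col12a1, a collagen that decorates fibrils, had 164 against 42.7 (1.91) and 325.5 against 56.7 (2.50). Col8a1, a short-chain network collagen, had the largest mean ratio of the list over both libraries, at 201 [175–231] against 7.10 CPM (4.64) and 260.3 [241–281] against 6.54 (5.11). It was uneven: after thinning it had a UMI in 16.1% and 15.4% of Cthrc1+ FBs (27.4% and 31.5% without thinning), and the 5 barcodes with most of it held 80.9% and 52.9% of its UMIs. Col27a1 had the lowest mean ratio of the list (0.54 and -0.56).

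Enzymes that process and crosslink collagen followed in part. Of 24 measured after a single dose 6 were higher and 1 lower (median ratio 0.32), and of 25 after repetitive doses 6 were higher and 1 lower (0.24). The same 6 were higher in both libraries, namely Loxl2 and Loxl3, lysyl oxidases that crosslink collagen, P4ha2 and P4ha3, subunits of prolyl 4-hydroxylase, and Bmp1 and Adamts14, which trim procollagen. P4ha3 had 108 against 43.4 CPM (1.30) and 61.0 against 20.9 (1.499), and at most 0.932 in the PBS libraries. After thinning to 2000 UMIs only P4ha3 of these 6 was past the limit in both libraries, and P4ha2 had -1.04 in the single-dose library. Without the deepest barcodes Adamts14 had -0.087 in that library. P4ha3 was not past the limit in both libraries with Cthrc1+ FBs at 2000 CPM of Spp1 or more left out. Tgm2, a transglutaminase, was lower in both (-1.17 and -1.35), but had -0.27 after thinning and -0.57 without the deepest barcodes in the single-dose library.

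Matricellular proteins, which sit in the matrix and signal to cells, were higher in part. Of the list, 5 of 16 genes were higher after a single dose (median 0.63) and 6 of 19 after repetitive doses, where 1 was lower (0.68). Postn, encoding periostin, had 392 [355–432] CPM against 20.03 [16.7–23.8] in comparison FBs and 3.04 in PBS after a single dose (ratio 4.22). After repetitive doses it had 471 [445–498] against 18.9 [17.6–20.2] and 1.52 (4.57). Postn was thus far above comparison FBs in both libraries, and after thinning it had a UMI in 35.5% against 3.54% and 31.5% against 2.29% of barcodes.

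Thbs2, a thrombospondin, had ratios of 2.70 and 2.20. Fbn2, a microfibril protein prominent in development, had 2.73 and 4.67, but -0.95, near the floor, in the single-dose library after thinning. Tnc, encoding tenascin C, lay at the limit, at 634 against 325 CPM (0.96) and 912 against 457 (0.996), and fibronectin (Fn1) differed less, with ratios of 0.31 and 0.61. Smoc2, a calcium-binding matricellular protein, was the lowest of the list in both libraries (-0.60 and -1.19). Against comparison FBs restricted to those with Tcf21 and without Col14a1, its ratios were 1.07 and 0.84, above 0 in both libraries.

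Spp1 had the highest summed level of the marker genes and was spread unevenly over cells. After a single dose it had 13582 CPM in Cthrc1+ FBs, 2394 in comparison FBs and 1.71 in PBS (ratio 2.50), and after repetitive doses 14032, 482 and 1.503 (4.86). The 5 barcodes with most Spp1 held 72.5% and 84.9% of its UMIs among Cthrc1+ FBs, and a single cell reached 286738 CPM. The median cell had 567 CPM after a single dose and 38.0 after repetitive doses. Without the deepest 10% of barcodes its ratios were 1.81 and 0.96, and so no longer past the limit in the repetitive library.

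UMIs of Spp1 were found in most barcodes of each type after a single dose. Without thinning, it had a UMI in 95.2% of Cthrc1+ FBs and 93.3% of comparison FBs, and also in 93.9% of 33 leukocyte barcodes and 92.9% of 14 endothelial barcodes (median 15080 UMIs), whose median cells had 343 and 303 CPM. Comparison FBs had a median of 391. Where these UMIs came from was not tested, and detection of Spp1 there is not read as expression. After repetitive doses the unthinned shares were 52.3% of Cthrc1+ FBs, 19.98% of comparison FBs, 33.8% of 320 leukocyte barcodes and 21.7% of 69 endothelial barcodes (median 9850 UMIs).

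**Figure D3:**
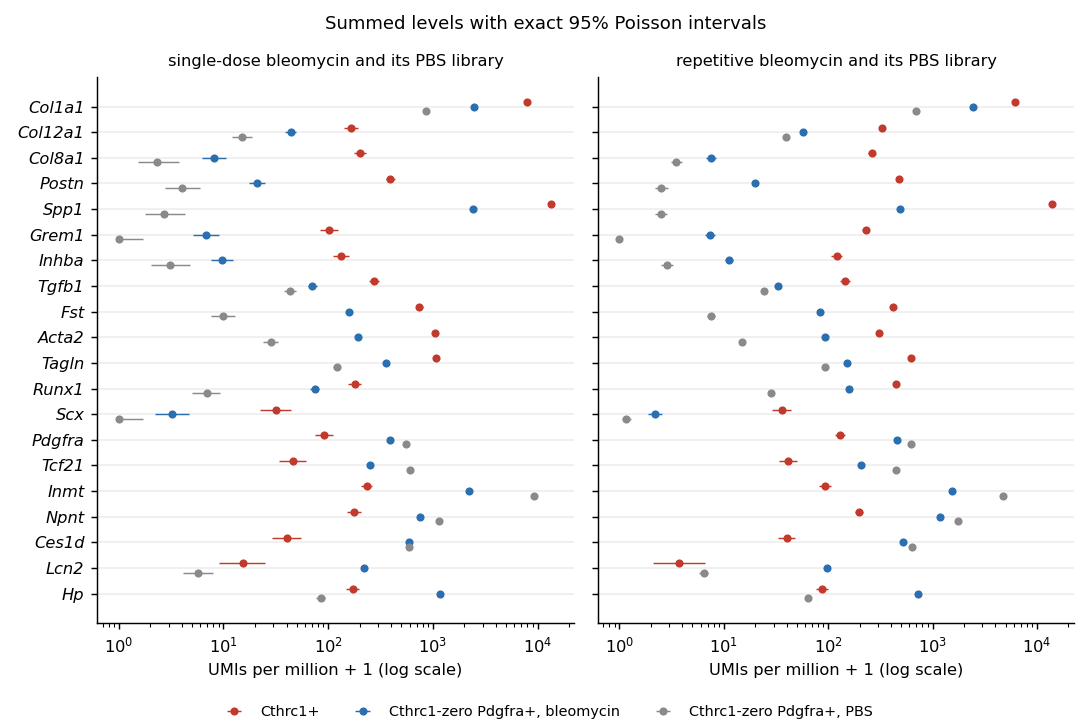
Summed CPM plus 1 (log axis) of 20 genes in Cthrc1+ FBs, comparison FBs of the same library and comparison FBs of its PBS library, with exact 95% Poisson intervals. Postn, Grem1 and Inhba are lowest in PBS and highest in Cthrc1+ FBs in both experiments, and Inmt and Tcf21 run in the opposite order.

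A few ligands and inhibitors of the TGF-beta family were higher, and most genes of the family were not. Of 27 genes for ligands, receptors and inhibitors, 6 were higher and 4 lower after a single dose (median 0.13) and 5 were higher and none lower after repetitive doses (0.10). The 5 were higher in both libraries. They were the ligands Tgfb1, Tgfb2 and Inhba and the secreted inhibitors Fst and Grem1, of which Tgfb2 had 0.57 in the single-dose library after thinning.

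Inhba had 132 [111–156] CPM against 8.68 [6.54–11.3] in comparison FBs and 2.09 in PBS after a single dose (ratio 3.78), and 120 [107–134] against 10.2 [9.31–11.2] and 1.83 after repetitive doses (3.42). After thinning it had a UMI in 12.9% of Cthrc1+ FBs against 1.49% of comparison FBs and in 16.8% against 1.63% (without thinning, 46.8% against 6.70% and 53.02% against 6.75%). Tgfb1 had 274 against 69.7 (1.96) and 144 against 32.0 (2.14), and Tgfb3 had ratios of 0.39 and 0.81. The ligands were thus higher alongside inhibitors of the same family: Fst, encoding follistatin, which binds activin, had 742 against 156 (2.24) and 415 against 83.0 (2.31).

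Grem1, encoding gremlin, a secreted antagonist of bone morphogenetic proteins, had no UMI in the comparison FBs of either PBS library. It had 101 [82.7–123] CPM in Cthrc1+ FBs against 5.84 after a single dose (3.90) and 228 [210–247] against 6.40 after repetitive doses (4.95). No receptor was higher in both libraries, and Tgfbr3, encoding the co-receptor betaglycan, had ratios of -1.28 and -0.996. Of 15 target genes of TGF-beta, 8 were higher after a single dose (median 1.09) and 4 after repetitive doses (0.67), none was lower, and Tagln, Cdkn2b and Actg2 were higher in both. Nox4, an oxidase on that list, had -0.67 and -0.30.

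Contractile genes were higher in part. Of 21 measured after a single dose, 9 were higher and none lower (median 0.73), and of 22 after repetitive doses 6 were higher and 2 lower (0.44). Acta2, Tagln, Tpm2, Actg2, Des and Csrp2 were higher in both. Without the deepest barcodes Des had 0.68 and 0.58 and Tpm2 0.99 in the single-dose library, and after thinning Des had 0.74 and Csrp2 0.88 in the repetitive library. Acta2 had 1051 [990–1115] CPM, 192 in comparison FBs and 27.2 in PBS after a single dose (2.45), and 305 [284–327], 91.5 and 14.1 after repetitive doses (1.73). The level was lower in the repetitive library in both groups of FBs.

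Tagln, encoding the actin-binding protein transgelin, had 1073 against 354 CPM (1.60) and 615 against 151 (2.02). Actg2, a visceral smooth muscle actin, had 72 UMIs and a ratio of 4.32 after a single dose but 12 UMIs and 1.69 after repetitive doses. Its ratio of -1.57 in the repetitive library after thinning to 2000 UMIs rests on few UMIs and is not read as a lower level. Proteoglycans were higher in 8 of 16 and 6 of 16 genes and lower in 3 and 1, with medians of 0.78 and 0.44. Lum and Fmod, which regulate fibril width, had ratios of 1.80 and 1.71 after a single dose and 1.73 and 2.79 after repetitive doses, and Cspg4, a cell-surface proteoglycan also used as a pericyte marker, had 3.00 and 4.02. Lum had 0.80 in the single-dose library after thinning. Gpc3, a glypican, was lower in both libraries (-1.41 and -1.53), but had -0.78 and -0.89 without the deepest barcodes.

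Elastic fibre genes were lower in part. Of 13, 1 was higher and 5 lower in each library (medians -0.82 and -0.24), and Fbln1, Efemp1, Mfap4 and Adamtsl2 were lower in both. Efemp1, a fibulin, had ratios of -2.65 and -1.53, and Mfap4, a microfibril-associated protein, -2.07 and -1.30. In the repetitive library Mfap4 had -0.83 with means per barcode, -0.85 after thinning and -0.80 without the deepest barcodes. Fbln1 had -0.88 and -0.98 without the deepest barcodes. Eln, elastin itself, was at 4172 against 6538 CPM (-0.65) and 2826 against 3347 (-0.24), so within the limits, and was above the PBS values of 805 and 678. Fbln2 had the highest mean ratio of the list (1.58 and 0.91).

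Basement membrane genes showed 1 higher of 14 and 1 of 16 (medians -0.12 and 0.16), which was Col15a1 in both, at 335 against 51.3 (2.69) and 193 against 73.8 CPM (1.37). In the repetitive library its ratio was 0.90 with means per barcode, 0.98 after thinning and 0.79 without the deepest barcodes. Lama4, a laminin chain, was lowest in both libraries (-0.80 and -0.89). Proteases and their inhibitors had 9 higher and 2 lower of 23 (median 0.77) and 8 higher and 1 lower of 26 (0.68). Adam19, Adamts6, Mmp9 and Serpine2 were higher in both, while Mmp3, stromelysin, was lower in both (-1.16 and -1.54). In the single-dose library Mmp3 had -0.10 with means per barcode, -0.15 after thinning and -0.28 without the deepest barcodes. Mmp9 had 0.29 there without the deepest barcodes, and Adam19 lay between 0.75 and 0.97 over both libraries and these 3 alternatives. Serpine2, a protease inhibitor, was abundant, at 3257 against 987 CPM (1.72) and 2129 against 687 (1.63), whereas Mmp9 had only 11 and 35 UMIs (2.17 and 3.49).

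Transcription factors of FB identity and activation were mixed. Of 29 factors, 8 were higher and 3 lower after a single dose (median 0.14) and 6 higher and 1 lower after repetitive doses (0.07). Runx1, Runx2, Scx and Meox1 were higher in both, although Runx1 had 0.79 in the single-dose library without the deepest barcodes. Runx1 had 178 against 73.2 CPM (1.27) and 444 against 158 (1.49), and its relative Runx2, a regulator of bone formation, had 33.7 against 5.99 (2.31) and 137 against 33.4 (2.00). Scx, the tendon factor scleraxis, had 30.8 against 2.21 (3.31) and 35.2 against 1.19 (4.05), and Meox1, a homeobox factor of activated FBs, had 79.0 against 7.10 (3.30) and 40.6 against 2.40 (3.62).

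The RUNX core was found in similar shares of promoters of all groups of genes. Of the 8109 genes kept in both libraries that had a promoter entry, 12.1% held TGTGGT, against 13.6% of 162 genes higher in both and 11.1% of 287 lower in both. GGAATG was in 12.7%, 16% and 16%, and TGANTCA in 5.32%, 9.88% and 10.1%. These are matches of letters on either strand in the 250-base windows, with no test.

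Wnt genes were mixed, with 4 higher and 5 lower of 24 (median -0.41) and 7 higher and 4 lower of 27 (0.04). The secreted antagonists Dkk2, Sfrp2 and Sfrp4 were higher in both libraries, and the agonists Wnt2, Wnt4 and Rspo1 were lower in both. Sfrp2 had -0.70 in the single-dose library at the stricter Cthrc1 threshold, and Rspo1 had 0.27 in the repetitive library against alveolar comparison barcodes. Dkk2 had 88.6 against 11.8 CPM (2.80) and 431 against 29.5 (3.82). Wnt2, the ligand of alveolar FBs, had 15.4 against 105 (-2.69) and 21.1 against 69.4 (-1.67). Of the integrins and osteopontin receptors, 2 of 10 and 2 of 14 genes were higher and 1 was lower in each library, with medians of 0.70 and 0.24. Itgb3, which pairs with the alpha v chain to bind osteopontin, had 9 and 31 UMIs and ratios of 1.74 and 2.13. It had -0.95, near the floor, in the single-dose library after thinning and 0.17 in the repetitive library without the deepest barcodes. Itga8 was lower (-2.21 and -1.74).

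The 15 highest genes, ranked by the smaller of their ratios in the 2 libraries, also included genes not yet described. Igfbp2, a binding protein of insulin-like growth factors, had ratios of 4.03 and 4.52, and Tnfrsf11b, encoding osteoprotegerin, had 3.92 and 3.45. Thbs4, a thrombospondin of tendon, had 83.8 against 9.31 CPM (3.04) and 192 against 3.82 (5.33). It was confined to few cells, with a UMI in 11.3% and 6.71% of Cthrc1+ FBs after thinning (17.7% and 10.7% without) and 86.2% and 78.3% of its UMIs in 5 barcodes. The other leading genes were Baalc (4.56 and 4.46), the phagocytic receptor Megf10 (3.29 and 4.098), the phosphate transporter Slc20a1 (3.23 and 3.57), the growth factor Pdgfc (3.14 and 3.77) and the adhesion molecule Ncam1 (3.34 and 3.08).

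Genes of alveolar FBs and lipofibroblasts (LipoFBs), the lipid-storing FBs beside alveolar type 2 cells, had the lowest median ratio of the 23 lists in both libraries. None of 29 was higher in either library, 23 were lower after a single dose (median -2.21) and 22 after repetitive doses (-1.96), and 21 were lower in both. Inmt, a methyltransferase of alveolar FBs, had 232 CPM in Cthrc1+ FBs, 2206 in comparison FBs and 9225 in PBS after a single dose (-3.24), and 92.2, 1551 and 4714 after repetitive doses (-4.06). Tcf21, the transcription factor of the LipoFB lineage, had 45.3, 252 and 610.1 (-2.45) and 40.3, 205 and 449 (-2.32). The groups kept the same order for both genes, with Cthrc1+ FBs lowest and PBS highest.

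Ces1d, a carboxylesterase, had 39.5 against 597 CPM (-3.88) and 39.1 against 515 (-3.69), and Npnt, the integrin ligand nephronectin, had 176 against 756.5 (-2.09) and 197 against 1173 (-2.57). Slc7a10, an amino acid transporter, had 0 and 2 UMIs in Cthrc1+ FBs, which was at least 13.4-fold lower than comparison FBs after a single dose by the limit of 3 UMIs over the group, and Pparg, the adipogenic nuclear receptor, had 0 and 3 UMIs. Plin2, which coats lipid droplets, had 40.5 against 124 (-1.60) and 54.3 against 106 (-0.96). Lpl, lipoprotein lipase, had the highest mean ratio of the list, with 722 CPM against 482 in comparison FBs and 81.7 in PBS (0.58), and 911 against 552 and 94.5 (0.72).

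The 10 lowest genes over all were named by rank and not by a shared role. Lrat, which esterifies retinol in vitamin A-storing cells, had 2 and 22 UMIs in Cthrc1+ FBs, with 71.0 and 108 CPM in comparison FBs and 228 and 221 in PBS. Scn3a, a sodium channel subunit, had 5 and 33 UMIs (-3.51 and -3.42). The complement gene C7 had 0 and 199 UMIs, which was at least 6.60-fold lower after a single dose and a ratio of -3.65 after repetitive doses. Prom1, Fgfr4, Cass4, C6 and Chodl had at most 2 UMIs after a single dose and at most 9 after repetitive doses.

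Pdgfra, the gene that drove the GFP of the sort, was required of comparison FBs but not of Cthrc1+ FBs, so its ratio was set in part by the rule. It had 90.6 [73.2–111] CPM against 388 and 559 in PBS after a single dose (-2.09), and 128 [114–142] against 451 and 617 after repetitive doses (-1.81). Without thinning it was detected in 64.5% and 72.5% of Cthrc1+ FBs. In the 40 and 108 Cthrc1+ FBs with a Pdgfra UMI, 86 of the 91 named genes past the limit in both libraries, Cthrc1 and Pdgfra not counted, were still past it. The exceptions were Mmp3, Asns, Adamts14, Csrp2 and Loxl3.

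Injury-activated FB genes, a list that includes acute-phase proteins, chemokines, growth factors and secreted antagonists, were lower in part. Of 20, 2 were higher and 9 lower after a single dose (median -0.72) and 4 higher and 8 lower after repetitive doses (-0.83), with Grem1 and Ptn higher and 7 lower in both. Hp, haptoglobin, had 170.5 CPM in Cthrc1+ FBs, 1167 in comparison FBs and 83.8 in PBS after a single dose (-2.77), and 85.6, 731 and 62.7 after repetitive doses (-3.08). Lcn2, the iron-binding protein lipocalin 2, had 14.5, 220 and 4.75 (-3.84) and 2.74, 96.7 and 5.44 (-4.71). For both genes the comparison FBs stood above Cthrc1+ FBs and the PBS library. After a single dose Cthrc1+ FBs also stood above PBS, and after repetitive doses Hp was above and Lcn2 below it.

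Saa3, a serum amyloid, had ratios of -1.58 and -5.19, and complement C3 had -2.08 and -1.60. Without the deepest barcodes Saa3 had -0.75 in the single-dose library and C3 -0.98 in the repetitive library. Sfrp1, a Wnt antagonist of transitional FBs, was within the limits, at 452 against 535 CPM (-0.24) and 239 against 400.5 (-0.74). Interferon response genes were lower in 8 of 18 and 5 of 18 (medians -0.97 and -0.67), with Ifit3, Stat2, Rsad2 and Ifi27l2a lower in both and none higher. Each of these 4 calls ended under an alternative on depth. After thinning, Ifit3 had -0.57, Rsad2 -0.72 and Ifi27l2a -0.94 in the single-dose library, and without the deepest barcodes Stat2 had -0.65 in the repetitive library, where the median of the list was -0.28. Rsad2, an antiviral enzyme, had 3 and 0 UMIs, and Bst2, tetherin, had -0.04 and -0.30.

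**Figure D4:**
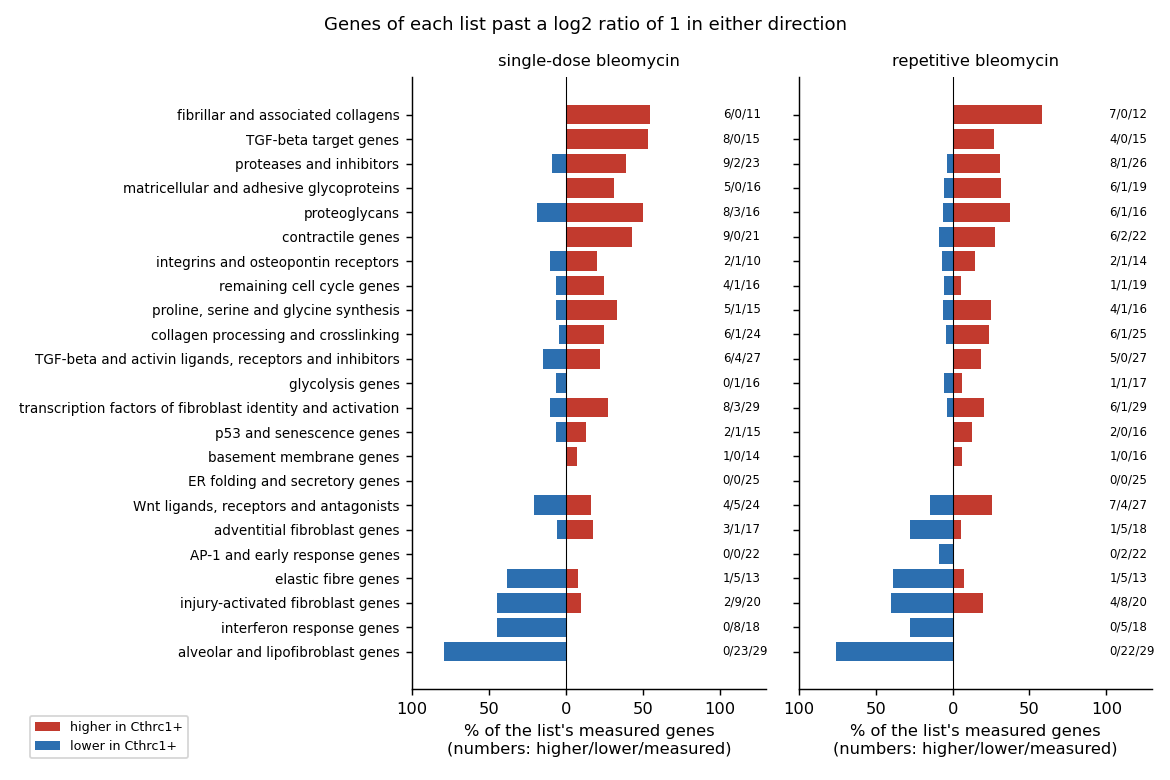
Percent of the measured genes of each of 23 lists that were higher (right) or lower (left) in Cthrc1+ than in comparison FBs by a log2 ratio of 1 or more, in each bleomycin library, with the counts higher/lower/measured at the side. Collagens reach 6 of 11 and 7 of 12 higher, and alveolar and LipoFB genes reach 23 and 22 of 29 lower.

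Several programmes often linked with secretion or stress differed little. None of 25 genes of protein folding and secretion in the endoplasmic reticulum was past the limit in either library (medians 0.03 and 0.01), and their lowest and highest mean ratios were those of Xbp1 (-0.78 and -0.58) and Sec23a (0.91 and 0.20). Glycolysis genes had none higher and 1 lower of 16 and 1 higher and 1 lower of 17 (medians 0.10 and 0.11), with Gapdh at 0.67 and 0.61 and the regulatory kinase Pfkfb3 at -1.74 and -1.91 (-0.97 in the single-dose library after thinning). Without the deepest barcodes Gapdh had -0.25 and the median of the list was -0.21 in the single-dose library. AP-1 and early response genes, which respond to tissue dissociation, had none past the limit of 22 and then 2 lower (medians -0.28 and -0.37), and their lowest and highest mean ratios were those of Atf3 (-0.75 and -1.11) and Ier3 (0.46 and 0.39).

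Genes that make proline, serine and glycine, the amino acids of collagen, had 5 higher and 1 lower of 15 (median 0.25) and 4 higher and 1 lower of 16 (0.52), with Asns, Phgdh and Slc7a5 higher in both, of which Slc7a5 had -0.70 and Phgdh 0.33 in the repetitive library after thinning. Their counts were low: Asns, asparagine synthetase, had ratios of 1.21 and 2.04, but -2.24 in the single-dose library after thinning and -2.53 there without the deepest 10% of barcodes. The serine transporter gene Slc1a4 had the lowest mean ratio (-0.51 and -1.01). Of p53 and senescence genes, 2 of 15 were higher and 1 lower and 2 of 16 were higher (medians 0.32 and -0.18), with the cyclin-dependent kinase inhibitor Cdkn2b at 1.86 and 3.21 and Gdf15 at -1.06 and -0.52. Remaining cell cycle genes, after barcodes with Mki67 and Top2a had been left out, had 4 higher and 1 lower of 16 and 1 of each of 19 (0.47 and 0.33), none of them past the limit in the same direction in both libraries. With comparison barcodes chosen by Cthrc1 and Pdgfra alone, which leaves cycling cells among them, the medians were -0.26 and -0.37. Ccnd1 (1.62 and 0.86) had their highest and Ccnb2 (0.36 and -1.80) their lowest mean ratio.

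Adventitial FB genes, which mark the MatrixFBs around vessels and airways, were mixed, with 3 higher and 1 lower of 17 (median -0.18) and 1 higher and 5 lower of 18 (-0.31). The direction depended on the barcodes compared. Against comparison FBs with Tcf21 and without Col14a1, the medians were 1.58 and 1.46, which that choice sets in part, since Col14a1 is on the list. Without the deepest barcodes they were 0.42 and 0.21. Cd248, endosialin, was higher in both (1.79 and 1.37) and Clec3b, a plasminogen-binding lectin, was lower in both (-1.28 and -1.35). Cd248 had 0.93 in the repetitive library after thinning, and Clec3b had -0.43 and -0.64 without the deepest barcodes. Cthrc1+ FBs were unlike in these genes, and were divided at 500 CPM of Col14a1, Pi16 and Ly6a together and at 2000 CPM of Spp1. Both limits were chosen after the values had been seen and cut ranges, not cell types. Of the cells, 9 and 18 lay between 250 and 1000 CPM of the adventitial genes, and 5 and 13 between 1000 and 4000 CPM of Spp1.

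Cells with many adventitial transcripts were 22 of 62 (35.5% [23.7–48.7]) after a single dose and 33 of 149 (22.1% [15.8–29.7]) after repetitive doses. In comparison FBs the same range held 21.97% and 36.1%, so the order of the groups was not the same in the libraries. Cells with much Spp1 were 22 of 62 (35.5% [23.7–48.7]) and 28 of 149 (18.8% [12.9–26.0]), against 5.4% and 2.85% of comparison FBs. Few cells were in both ranges: 0 after a single dose (Clopper-Pearson interval 0–5.78%) and 4 after repetitive doses (2.69% [0.736–6.73]). The number of shared cells to be expected without any link was not computed, so the overlap is not read as a separation of the ranges. In neither range were 18 (29.0%) and 92 (61.7%).

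**Figure D5:**
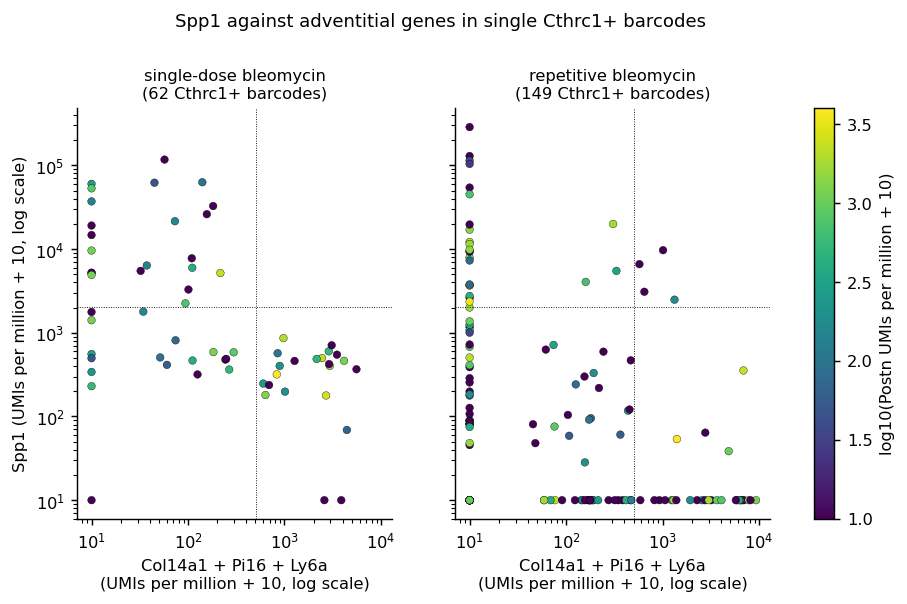
Each point is 1 Cthrc1+ FB, placed by its summed Col14a1, Pi16 and Ly6a level (horizontal) and its Spp1 level (vertical), in CPM plus 10 on log axes, and coloured by Postn. Dotted lines mark 500 and 2000 CPM, the upper right holds 0 and 4 cells, and cells coloured for Postn occur on both sides of the vertical line.

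Postn was found on both sides of the adventitial limit, while Inhba and Grem1 were mostly found below it. Cells in the adventitial range had 830.4 CPM of Postn after a single dose and 792 after repetitive doses, and the rest had 267 and 415. Inhba had 4.35 against 168 and 45.04 against 132. Grem1 had 4.35 against 129 and 15.9 against 264.5. Thbs4 had no UMI in any adventitial-range cell and 108 and 225.5 CPM in the rest.

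Tenascin C and osteopontin were also on the other side. Tnc had 122 CPM in the adventitial range against 779.8 in the rest after a single dose and 138 against 1046 after repetitive doses, and Spp1 had 378 against 17341 and 297 against 16408. Comparison FBs had the same direction, so it was not particular to Cthrc1+ FBs. In comparison FBs Tnc had 54.5 against 387 and 156 against 583, and Spp1 had 464 against 2834 and 201 against 600. Among Cthrc1+ FBs, Acta2 differed less after a single dose, at 800.0 against 1123, than after repetitive doses, at 154 against 331. Depth moved with this division: the median cell had 10218 and 9944 UMIs in the adventitial range and 18159 and 15741 outside it, and its part in these values was not tested.

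The divided cells were then set beside comparison FBs of the same range. The leading genes did not all stand above them in the adventitial range: Inhba had ratios of -1.17 and 2.12 there, Thbs4 -1.43 and -3.20 and Fst -1.82 and 0.78. These rest on few UMIs in Cthrc1+ FBs of the range: 1 and 17 of Inhba, 0 and 0 of Thbs4, and 8 and 44 of Fst. With 1.70 and 8.18 CPM in the comparison FBs, both ratios of Thbs4 were near the floor. Postn was above the comparison FBs on both sides, with ratios of 4.40 and 4.42 in the adventitial range and 3.99 and 5.04 outside it, and so was Col1a1, with 1.43 and 1.00 in the range and 1.75 and 1.66 outside. Runx1 was above only outside the range by these values, at 1.45 and 1.53 against -0.04 and -0.89. Tgfb1 had 2.09 and 2.10 outside and 0.34 and 0.59 inside. The lower level of Tcf21 lay largely outside the range as well, at -2.90 and -3.07 against -0.67 and -0.23, and likewise that of Hp, at -3.27 and -3.41 against -0.65 and -1.63. Mfap4 had -2.38 and -1.61 outside and -0.21 and -0.20 inside. These differences between ranges were not tested.

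Within Cthrc1+ FBs, rank correlations over barcodes thinned to 2000 UMIs were also computed. The cells share a library and a small number of UMIs per cell, and no p is given. Over 62 and 149 cells, Spp1 and Col14a1 had a rho of -0.52 and -0.20, Col14a1 and Pi16 0.53 and 0.56, and Acta2 and Tagln 0.68 and 0.40. Cthrc1 had 0.27 and 0.26 with Postn and -0.03 and 0.06 with Spp1.

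Levels were also set out across ranges of Cthrc1, where some genes were ordered and others were not. From comparison FBs through barcodes with Cthrc1 below the rule (78 and 201) to Cthrc1+ FBs under 300, at 300 to 600 and at 600 CPM or more (20, 23 and 19 cells, and 50, 38 and 61), Postn ran 20.03, 82.7, 295, 374 and 495 CPM after a single dose. After repetitive doses it ran 18.9, 54.4, 302, 448 and 678. By summed CPM, Postn was higher at each step in both libraries. By the share of barcodes with a Postn UMI after thinning, it was higher at each step in the single-dose library alone. In the repetitive library that share was 10.4% in barcodes below the rule and 10% in Cthrc1+ FBs under 300 CPM. Tagln ran 354, 850.3, 737, 907 and 1535 after a single dose and 151, 405, 449.5, 468 and 917 after repetitive doses, so it was higher at each step in the repetitive library alone. Inhba ran 8.68, 38.5, 167, 90.7 and 145, and 10.2, 170.1, 77.5, 120.5 and 166. Spp1 ran 2394, 5683, 12702, 8108 and 20067, and 482, 4451, 22196, 8721 and 9141. Neither gene was ordered by summed CPM in either library. By thinned shares Inhba was higher at each step after a single dose but not after repetitive doses.

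Inmt was highest in comparison FBs but was not ordered throughout. It ran 2206, 1089, 403, 147 and 176 CPM after a single dose, and after repetitive doses ran 1551, 432, 78.5, 116 and 88.6. Pdgfra, required of the comparison FBs alone, ran 388, 255, 138, 85.4 and 55.9, and 451, 198, 175, 86.1 and 108. Thbs4 ran 9.31, 44.2, 6.55, 18.7 and 218, and 3.82, 50.2, 25.5, 123 and 433. Few cells carried these sums: after thinning, Thbs4 had a UMI in 26.3% and 9.84% of the cells in the highest range and in 4.35% and 7.89% of those in the range below. As a whole, the barcodes below the rule had Postn between comparison FBs and Cthrc1+ FBs, with median depths of 15538 and 10519 UMIs. Close to the limit this did not hold, since the repetitive barcodes just below it had 3.95 CPM of Postn, under the comparison FBs, and the single-dose cells just inside had 50.3.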

How the data were processed

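The data were UMI counts per gene and barcode, which the authors made with Cell Ranger 3.0.1 on mm10 and deposited without normalization, 1 table per library. Gencode M17 of GRCm38 is named in the authors' description of the processing. That description does not mention the repetitive libraries, and no separate annotation is given for them. The columns were read with Python 3.11.15, numpy 2.4.6, scipy 1.17.1 and pandas 2.3.3, and figures were drawn with matplotlib 3.10.9. The organoid libraries gave shares of Cthrc1+ barcodes alone. Samples were grouped by their labels, with 1 library per condition. Levels were summed UMIs per 1000000 (CPM), ratios were log2 after adding 1 CPM, and genes needed 20 UMIs over both groups. Doublets were not called; barcodes with Ptprc, Pecam1 or Epcam were left out, and an alternative left out the deepest 10%. The summing and ratio steps were tested on simulated data.

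The cells and the gene lists were chosen with earlier results of these data known. The text names the genes of the rule, the highest and lowest gene of each list, the 15 highest and 10 lowest genes of both libraries without mitochondrial, ribosomal protein and unnamed genes, and other list genes chosen after their values were seen. Alternatives were other comparison barcodes, a stricter Cthrc1 threshold, Cthrc1+ FBs with Pdgfra, a pseudocount of 5, other minimum UMIs, means per barcode, centring, thinning, and leaving out the deepest barcodes or those above 10% mitochondrial UMIs. RefSeq promoters, build GRCm38.p6, had no entry used here for Cthrc1.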

Additional observations from a re-analysis of the deposited data

Results flagged for a closer look

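Of the 10178 genes kept in both libraries, 4 were past the limit in opposite directions, and the difference between the libraries was not tested. Adam23, a membrane protein of the ADAM family, had a log2 ratio of 1.22 after a single dose and -1.34 after repetitive doses, from 28 and 26 UMIs in Cthrc1+ FBs. Shisa3 had 1.57 and -1.03, from 21 and 5 UMIs. Tnfaip3, the inhibitor A20 of NF-kappaB signalling, had 1.16 and -1.22, from 20 and 107 UMIs. Aqp5, an aquaporin of alveolar epithelium, had -1.77 and 1.59, from 1 and 29 UMIs.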

How the results depend on the processing

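No paired analysis was possible because each condition had 1 library. The counts of higher and lower genes, 455 and 974 after a single dose, 594 and 1096 after repetitive doses and 230 and 377 in both, varied with how low counts were treated. With a pseudocount of 5 they were 280 and 448 after a single dose, 332 and 471 after repetitive doses, and 226 genes were lower in both. With no minimum of UMIs 840 were higher after a single dose. With at least 100 UMIs there were 180 and 446 after a single dose and 112 and 239 in both. Thinned to 2000 UMIs, 1825 were lower after repetitive doses and 67 and 223 were past the limit in both. Without the deepest 10% of barcodes 151 were higher in both. The share of Cthrc1+ FBs was 4.38% and 1.34% at the stricter threshold, and in the repetitive library 3.83% at 5000 UMIs or more and 2.31% without the deepest barcodes.

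Of 91 named genes past the limit in both libraries, Cthrc1 and Pdgfra not counted, 61 were past it without the deepest barcodes, 64 after thinning, 72 with means per barcode and 83 with a pseudocount of 5. Over all alternatives the ratio of Postn stayed between 3.93 and 5.56 after a single dose and between 4.24 and 5.596 after repetitive doses, and that of Inhba between 2.87 and 4.60 and between 2.90 and 3.79. Spp1 had 1.81 and 0.96 without the deepest barcodes. Ratios past the limit that changed sign were Smoc2 (0.84) and Rspo1 (0.27) in the repetitive library against alveolar comparison barcodes, Sfrp2 (-0.70, single dose) at the stricter threshold, Itgb3 (-0.95), Fbn2 (-0.95), P4ha2 (-1.04) and Asns (-2.24) in the single-dose library and Actg2 (-1.57) and Slc7a5 (-0.70) in the repetitive library after thinning, and Asns (-2.53) and Adamts14 (-0.087) in the single-dose library without the deepest barcodes. The cause was not tested. Ratios inside the limit changed sign in 25 cases, of which 2 ended past it, Smoc2 (1.07, single dose, alveolar comparison barcodes) and Ccnb2 (-2.35, single dose, without the deepest barcodes). With Cthrc1+ FBs above 2000 CPM of Spp1 left out, an alternative added after seeing the data, Spp1 had -2.07 and -1.25, which that choice sets, and 73 of the 91 were past the limit. With barcodes above 500 CPM of adventitial genes left out of both groups, also added after seeing the data, 89 were. Under means per barcode, thinning and leaving out the deepest barcodes alike, 15 of the 91 were not past it: Actg2, Adam19, Asns, Bmp1, Clec3b, Col15a1, Gpc3, Loxl3, Mfap4, Mmp3, P4ha2, Pfkfb3, Phgdh, Slc7a5 and Tgm2. Of 644 list medians recomputed, 27 moved by more than their allowance and 40, in 11 lists, changed sign. Single-dose medians that did both after thinning were those of adventitial (0.46), proline and serine (-0.16), p53 (-0.15) and cell cycle genes (-0.027).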

Other observations

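Outside the lung FBs, Cthrc1 passed the same limits in organoid cultures and in a few barcodes of other types. In organoids grown from alveolar type 2 cells and FBs, 214 of 1717 FB barcodes (12.5% [10.9–14.1]) met the rule with normal FBs and 339 of 2783 (12.2% [10.99–13.5]) with fibrogenic FBs. The median organoid barcode past the rule had 58589.5 and 48957 UMIs, against 15222 and 14748 in injured lung, and the part of depth and culture in this difference was not tested. In the single-dose PBS library, where no FB passed, 3 of 29 endothelial barcodes (at least 2 UMIs of Pecam1 and none of Ptprc) had a UMI of Cthrc1 and 2 passed its limits. In the repetitive PBS library 9 of 31 epithelial barcodes (at least 2 UMIs of Epcam and none of Ptprc) had a UMI and 0 passed.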
